A study of Mus musculus with 6 samples.

Results

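The genes described here encode the aminoacyl-tRNA synthetases, the enzymes that load each amino acid onto its tRNA. The members were taken by gene symbol, and the list was chosen with earlier results of these data known. All 36 members, 20 cytosolic and 16 mitochondrial with a symbol ending in 2, were found among the 23504 genes of the expression table. The table holds 6 RNA-seq libraries of BMMs, macrophages grown from the bone marrow of male C57BL/6 mice aged 6 to 8 weeks, in 2 groups of 3 that received either DASA-58 or the solvent DMSO. DASA-58 is a small molecule activator of PKM2, the pyruvate kinase isoform that ends glycolysis. RNA was taken after 3 days. By the study's results, RANKL was given to both groups. It is the cytokine that turns these macrophages into osteoclasts. The methods name RANKL for the treated group alone and write DASA-48 where the labels write DASA-58. No concentration is given for this experiment. The study calls its replicates independent, but does not say whether the 3 of a group came from separate mice or cultures. The p-values then measure only the spread between these libraries, which may be technical.

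Each synthetase recognises its amino acid and the matching tRNA, and the charged tRNA then brings the amino acid to the ribosome. The enzymes fall into class I and class II by the fold of their catalytic domain. In the cytosol several of them sit together with the scaffold proteins Aimp1, Aimp2 and Eef1e1 in the multisynthetase complex, and a separate set encoded in the nucleus charges tRNAs inside mitochondria. Kars and Gars serve both compartments from single genes, and mitochondrial glutaminyl-tRNA is made indirectly by an amidotransferase. Many cytosolic synthetase genes are known targets of ATF4, the transcription factor whose translation rises when amino acids are short or eIF2alpha is phosphorylated. Osteoclasts are large fused cells that secrete much protein.

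The values are FPKM, fragments scaled to gene length and library depth, so that levels can be compared between genes as far as the gene lengths behind them hold. For Hars, Lars, Nars, Tars and Aars2 the annotated length gave no whole fragments, and the shortest length that did was below it (1987 bases against 2447 for Hars, 3856 against 5368 for Lars, 2632 against 4355 for Nars, 2636 against 5901 for Tars and 3348 against 4765 for Aars2). A multiple of the shortest length would serve as well, so that fragments recovered for these genes are a lower limit. Levels of these 5 genes at the annotated length, a check chosen after seeing the data, are given below beside the deposited ones. Recovered depth lay between 18191560 and 18968556 fragments a library. A cytosolic member had between 996 and 5782 fragments in a library and a mitochondrial member between 106 and 4434, and fewer fragments bring a larger counting error. The strand use of the counting is not given in the sources used here, and the exons of Farsb, Hars, Mars, Yars, Cars2, Ears2, Fars2, Hars2 and Iars2 overlap a protein-coding gene on the opposite strand. Those of Aars, Cars, Iars2, Nars2 and Vars2 overlap a gene of another type there, and Aars overlaps Exosc6 on its own strand. Reads of these overlaps cannot be told apart without strand, nor those of Aars and Exosc6 with it.

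In the deposited values, cytosolic synthetase mRNAs were more abundant than their mitochondrial counterparts. The median level over the 6 libraries was 27.6 FPKM for the 20 cytosolic genes and 3.93 FPKM for the 16 mitochondrial genes, and in all 16 pairs for the same amino acid the cytosolic gene was higher in all 6 libraries. Nars, which charges asparagine, stood far above the rest at 115 FPKM, with a range of 112 to 117 FPKM over libraries. Its mitochondrial counterpart Nars2 was the lowest member at 1.02 FPKM. The Nars level was 113 times that of Nars2, against 1.61 times for Lars over Lars2, which charge leucine and were the closest pair. With the fragments of the 5 genes above divided by the annotated length, Nars was at 69.6 FPKM and still the highest, at 68.1 times Nars2. Hars was then at 37.9 FPKM, Lars at 17.1, Tars at 16.0 and Aars2 at 3.06 FPKM. The cytosolic gene was then higher in all libraries in 15 of 16 pairs, since Lars at 17.0 FPKM lay below Lars2 at 21.1 FPKM in DASA-58 replicate 3. The fragments of the 5 genes are a lower limit, and so are these levels. The order and the pair count at the annotated length rest on them.

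By deposited values, the order after Nars ran through Hars for histidine at 46.7 FPKM, Gars for glycine at 42.3, Vars for valine at 41.0, Kars for lysine at 36.5, Tars for threonine at 35.7 and Rars for arginine at 35.2 FPKM. Sars for serine stood at 30.9 FPKM, the β subunit gene Farsb at 28.9, Qars for glutamine at 27.7, Dars for aspartate at 27.5, Iars for isoleucine at 26.9 and Mars for methionine at 24.5 FPKM. Lars followed at 23.8 FPKM, Wars for tryptophan at 22.1, Aars for alanine at 20.3 and the α subunit gene Farsa at 20.3 FPKM. Among the cytosolic genes the lowest levels were those of Yars for tyrosine at 11.1 FPKM, Cars for cysteine at 8.95 and Eprs, the fused enzyme for glutamate and proline, at 8.41 FPKM.

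Lars2 was the highest mitochondrial gene at 14.7 FPKM, followed by Rars2 at 10.3, Iars2 at 10.2, Hars2 at 7.75, Tars2 at 7.60, Sars2 at 6.35 and Yars2 at 5.11 FPKM. Aars2 at 4.36 FPKM, Fars2 at 3.49, Cars2 at 3.43, Vars2 at 3.01 and Pars2 at 2.80 FPKM came next, and Ears2 at 1.59, Wars2 at 1.22 and Mars2 at 1.16 FPKM were near the foot of the order with Nars2. Neighbours in this order of 36 were separated in every library at 5 places only, namely Nars above Hars, Rars above Sars, Lars2 above Yars, Iars2 above Cars and Pars2 above Ears2.

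**Figure D1:**
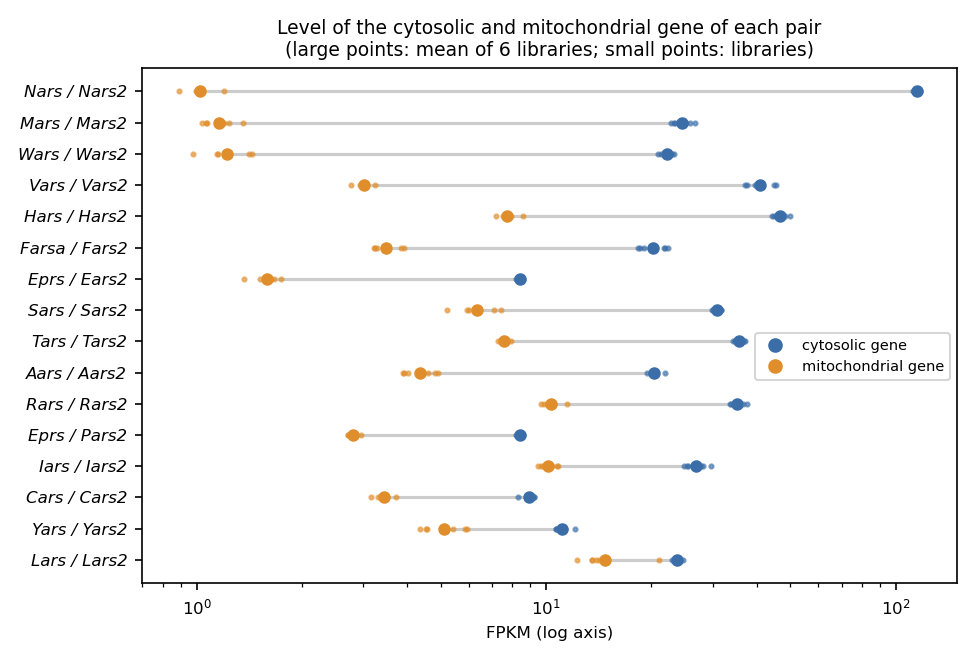
Level of the cytosolic (blue) and mitochondrial (orange) gene for the same amino acid in FPKM on a log axis, with the 6 libraries as small points and their mean as a large point. In these deposited values every blue point lies to the right of the orange points of its pair. The distance is widest for Nars and Nars2 at 113 times and narrowest for Lars and Lars2 at 1.61 times. At the annotated lengths these were 68.1 and 1.16 times, from fragments of Nars and Lars that are a lower limit.

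With DASA-58, 5 of the 36 synthetase genes fell and 0 rose at an adjusted p under 0.05. The 5 were Farsa, Iars, Mars and Vars in the cytosol and Yars2 in mitochondria, each to between 78.1% and 89.6% of its DMSO level. These were small changes. The test was limma on log2(FPKM + 1) over the 10965 genes that averaged 1 FPKM or more, with Benjamini-Hochberg adjustment over all of them, and all 36 members passed that filter. Over all genes tested, 7.28% fell and 4.24% rose, against 13.9% and 0 of the members. At an unadjusted p under 0.05, 12 members were lower and 1 (Farsb) was higher, beside 18% and 9.83% of all genes tested. Fold changes on this scale understate those of low genes.

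Most members had a negative log2 fold change, fewer of them after scaling libraries to a common median. The log2 fold change, DASA-58 minus DMSO, was negative for 18 of 20 cytosolic and 13 of 16 mitochondrial genes, with medians of -0.085 and -0.063, beside -0.028 and 59.8% negative over all genes tested. All 3 DASA-58 libraries lay below all 3 DMSO libraries for 12 of the 20 cytosolic genes (60%) and for 5 of the 16 mitochondrial genes, where 21.6% of all genes tested did so. Farsb was the only member with all DASA-58 libraries above all DMSO libraries, a pattern that 11.8% of all genes tested showed. For a single gene the exact permutation test (two-sided, 3 against 3 libraries) cannot give a p below 0.10, which is the value of each of these non-overlapping genes.

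The summed level of the 20 cytosolic genes was 643 to 660 FPKM in libraries of the DMSO group and 611 to 625 FPKM in those of the DASA-58 group, with no overlap. The sum of the 16 mitochondrial genes was 83.9 to 87.0 FPKM with DMSO, against 80.3 to 86.2 FPKM with DASA-58, and these ranges overlapped. In bulk RNA, fewer cells of a type and less RNA per cell cannot be told apart.

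When each library was centred on the median of its tested genes, all genes moved to 504 lower and 597 higher from 798 lower and 465 higher. The cytosolic median was then -0.059, 16 of 20 cytosolic genes were negative because Dars and Eprs turned to 0.014 each, and Farsa, Iars and Yars2 still passed the test. The mitochondrial median moved to -0.037, with 12 of 16 negative.

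**Figure D2:**
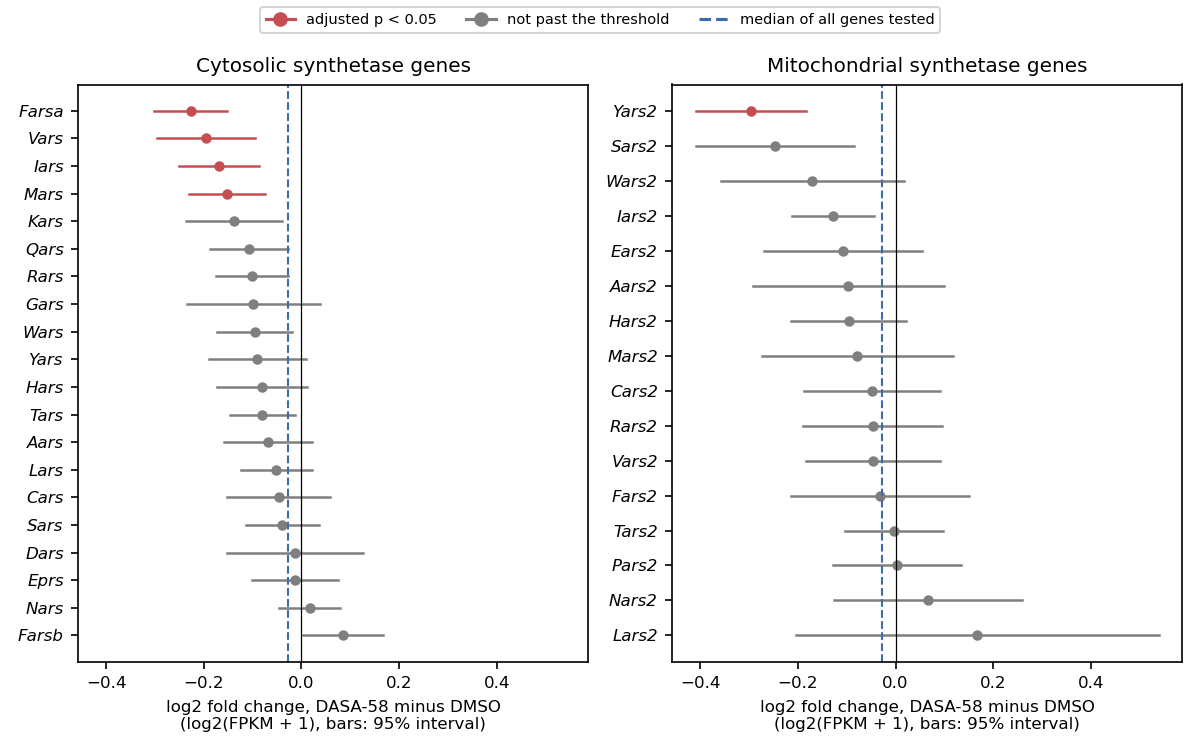
Log2 fold change of each synthetase gene (DASA-58 minus DMSO, log2(FPKM + 1) scale) with its 95% interval from limma, cytosolic genes on the left and mitochondrial genes on the right. Red marks the 5 genes with an adjusted p under 0.05, and the dashed line is the median of all genes tested at -0.028.

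Farsa (ENSMUSG00000003808) encodes the catalytic α subunit of the cytosolic phenylalanyl-tRNA synthetase and had the smallest adjusted p of the family. Its level was 21.8, 22.3 and 21.7 FPKM in DMSO replicates 1, 2 and 3 and 18.3, 18.5 and 19.0 FPKM in DASA-58 replicates 1, 2 and 3. The groups were far apart beside the spread within them. The mean fell from 22.0 ± 0.325 to 18.6 ± 0.369 FPKM (SD, n = 3 libraries each), for a log2 fold change of -0.23 with a standard error of 0.032 (adjusted p = 0.0048, limma). The call held in all 18 alternative settings, with an adjusted p of at most 0.024.

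Farsb (ENSMUSG00000026245) encodes the β subunit of the same enzyme, which works as a tetramer of both subunits in equal number. Its level was 28.0, 27.0 and 29.2 FPKM with DMSO, against 29.8, 30.0 and 29.6 FPKM with DASA-58. The DASA-58 libraries lay above the DMSO libraries by a small margin, and the change of 0.09 on the log2 scale did not pass the test (95% interval 0.0036 to 0.17, adjusted p = 0.164, limma). The ratio of Farsa to Farsb ranged from 0.745 to 0.826 with DMSO and from 0.615 to 0.643 with DASA-58. This ratio was taken up after the values were seen and is a description with no test.

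Vars (ENSMUSG00000007029), the valyl-tRNA synthetase of class I, stood at 44.8, 45.5 and 41.5 FPKM with DMSO, against 37.2, 39.7 and 37.7 FPKM with DASA-58. The lowest DMSO library, replicate 3, was still above the highest DASA-58 library. Its mean fell from 43.9 ± 2.11 to 38.2 ± 1.33 FPKM (SD, n = 3), and the log2 fold change was -0.20 with a standard error of 0.043 (adjusted p = 0.027, limma). The call held in 9 of 18 alternatives, whose adjusted p ran from 0.00018 to 0.116. It was lost without DMSO replicate 1 (0.089), DMSO replicate 2 (0.070), DASA-58 replicate 1 (0.088) or DASA-58 replicate 3 (0.089).

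Iars (ENSMUSG00000037851) charges isoleucine as part of the multisynthetase complex. Its level was 28.1, 27.8 and 29.7 FPKM with DMSO, against 25.3, 24.8 and 25.5 FPKM with DASA-58. The DASA-58 libraries lay close together and below every DMSO library. The mean fell from 28.5 ± 1.05 to 25.2 ± 0.353 FPKM (SD, n = 3), and the log2 fold change was -0.17 with a standard error of 0.036 (adjusted p = 0.023, limma). The call held in 10 of 18 alternatives (adjusted p 0.0013 to 0.077) and was lost without DMSO replicate 1 (0.057) or without DASA-58 replicate 1, 2 or 3 (0.067, 0.077 and 0.062).

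Mars (ENSMUSG00000040354) charges methionine, on the initiator tRNA as well as the elongator, and is also part of the complex. Its level was 25.1, 25.7 and 26.7 FPKM with DMSO, against 23.2, 23.3 and 22.8 FPKM with DASA-58. All DASA-58 values lay below all DMSO values. The mean fell from 25.8 ± 0.799 to 23.1 ± 0.255 FPKM (SD, n = 3), and the log2 fold change was -0.15 with a standard error of 0.034 (adjusted p = 0.027, limma). Of the 5 calls this was the least stable, holding in 6 of 18 alternatives (adjusted p 0.010 to 0.096). It was lost without DMSO replicate 2 or 3 (0.058 and 0.064) and without DASA-58 replicate 1, 2 or 3 (0.076, 0.070 and 0.096).

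The exons of Mars overlap those of Ddit3, the stress factor CHOP, on the opposite strand. Ddit3 stood at 20.7, 21.4 and 22.8 FPKM with DMSO, against 22.1, 22.6 and 24.3 FPKM with DASA-58, a log2 fold change of 0.08 (adjusted p = 0.315, limma). Its values overlapped between the groups, and its log2 fold change had the opposite sign to that of Mars.

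**Figure D3:**
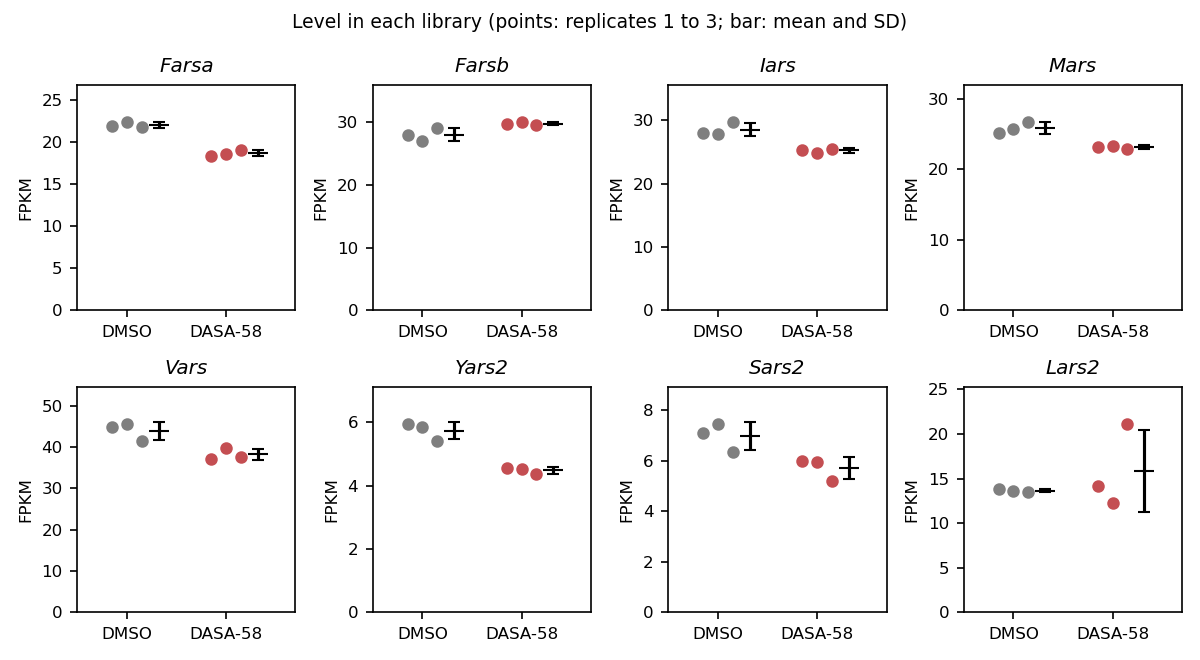
FPKM of 8 synthetase genes in each library (points, replicates 1 to 3 from left to right) with the mean and SD of each group of 3 as a bar, each axis starting at 0. The groups do not overlap in the panels of Farsa, Iars, Mars, Vars, Yars2 and Sars2 (lower with DASA-58) and of Farsb (higher), while in Lars2 DASA-58 replicate 3 stands alone at 21.1 FPKM.

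The other 16 cytosolic genes did not pass the test, and their 95% intervals ran between -0.24 and 0.17 on the log2 scale. Kars, the lysyl enzyme shared by cytosol and mitochondria, had the largest change among them. Its level was 38.9, 36.6 and 39.3 FPKM with DMSO, against 33.1, 35.8 and 35.2 FPKM with DASA-58, without overlap. The log2 fold change was -0.14 with a standard error of 0.042 (adjusted p = 0.077, limma), and it passed in 2 of 18 alternatives, with a minimum mean of 5 FPKM and with voom on recovered fragments (adjusted p 0.010 to 0.193 over the 18).

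The groups also did not overlap for 7 other cytosolic genes that missed the threshold on the lower side. Their log2 fold changes were -0.11 for Qars, -0.10 for Rars, -0.10 for Wars, -0.09 for Yars, -0.08 for Tars, -0.07 for Aars and -0.05 for Lars. Qars passed with voom alone (adjusted p = 0.028, range 0.028 to 0.228 over 18 alternatives). The exons of Yars overlap those of C77080 on the opposite strand, whose level was 9.41 to 10.4 FPKM with DMSO, against 7.79 to 8.83 FPKM with DASA-58.

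Groups overlapped for the 7 remaining cytosolic genes. The log2 fold changes were -0.10 for Gars, -0.08 for Hars, -0.05 for Cars, -0.04 for Sars, -0.013 for Dars, -0.013 for Eprs and 0.017 for Nars. Nars, the most abundant member, had a narrow 95% interval of -0.046 to 0.080, and its mean was 114 ± 2.71 FPKM (SD, n = 3) with DMSO, against 116 ± 0.881 FPKM with DASA-58. Gars spread more, from 40.0 to 46.6 FPKM with DMSO, against 38.7 to 42.1 FPKM with DASA-58.

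In the mitochondrial set only Yars2 (ENSMUSG00000022792), which charges tyrosine, passed the test, and it had the largest fall of the 36 genes. Its level was 5.94, 5.84 and 5.42 FPKM with DMSO, against 4.55, 4.52 and 4.37 FPKM with DASA-58. Every DASA-58 library lay well below every DMSO library. The mean fell from 5.73 ± 0.273 to 4.48 ± 0.0983 FPKM (SD, n = 3), and the log2 fold change was -0.30 with a standard error of 0.049 (adjusted p = 0.0091, limma). The fragments behind it were 343, 347 and 311 with DMSO and 270, 259 and 261 with DASA-58. The call held in all 18 alternatives, with an adjusted p of at most 0.039.

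Sars2, the mitochondrial enzyme for serine, came next at 7.11, 7.44 and 6.37 FPKM with DMSO, against 6.01, 5.94 and 5.20 FPKM with DASA-58. The groups did not overlap, but replicate 3 was the lowest in each. The log2 fold change was -0.25 with a standard error of 0.070 (adjusted p = 0.061, limma), and it passed in 5 of 18 alternatives (adjusted p 0.013 to 0.182), among them the fit without DMSO replicate 3 (0.042).

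Iars2 for isoleucine stood at 10.7, 10.8 and 10.4 FPKM with DMSO, against 9.79, 9.68 and 9.51 FPKM with DASA-58. These groups were also apart. The log2 fold change was -0.13 with a standard error of 0.036 (adjusted p = 0.062, limma), and it passed with voom alone (adjusted p 0.018 to 0.174 over 18 alternatives). The exons of Iars2 overlap those of Rab3gap2 on the opposite strand, which stood at 12.4 to 12.9 FPKM with DMSO, against 12.1 to 12.6 FPKM with DASA-58.

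Wars2 for tryptophan was low, at 1.41, 1.21 and 1.44 FPKM with DMSO, against 1.14, 0.980 and 1.15 FPKM with DASA-58, from 106 to 156 fragments a library. The DASA-58 libraries lay below the DMSO libraries by less than the spread within either group. The log2 fold change was -0.17 with a standard error of 0.081 (adjusted p = 0.217, limma).

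Lars2 for leucine went the other way in 1 library. Its level was 13.9, 13.6 and 13.5 FPKM with DMSO, against 14.2, 12.3 and 21.1 FPKM with DASA-58. DASA-58 replicate 3 was high and the other two DASA-58 libraries lay around the DMSO values. The log2 fold change was 0.17 with a standard error of 0.160 (adjusted p = 0.553, limma), and it was -0.045 without that library. In DASA-58 replicate 3, 20 of the 10965 genes tested exceeded 1.4 times their level in every other library, and the number for the other libraries was 20 to 25. CT010467.1, annotated as ribosomal RNA and chosen after its values were seen, stood at 160, 159 and 138 FPKM with DMSO, against 169, 152 and 262 FPKM with DASA-58. Its part in the Lars2 value was not tested.

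Ears2 for glutamate was the other mitochondrial gene without overlap, at 1.64 to 1.75 FPKM with DMSO, against 1.37 to 1.60 FPKM with DASA-58 (log2 fold change -0.11, adjusted p = 0.368, limma). The 10 others overlapped between the groups. Their log2 fold changes were -0.10 for Aars2, -0.10 for Hars2, -0.08 for Mars2, -0.05 for Cars2, -0.05 for Rars2, -0.05 for Vars2, -0.03 for Fars2, -0.0030 for Tars2, 0.0034 for Pars2 and 0.07 for Nars2. Without Lars2, the 95% intervals of the members that missed the threshold ran between -0.41 and 0.26.

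The cytosolic and mitochondrial genes for the same amino acid were set against each other as ratios, without a test. The ratio of Yars to Yars2 was 1.88 to 2.08 with DMSO and 2.34 to 2.45 with DASA-58. The ratios of Sars to Sars2 and of Eprs to Ears2 were also higher in every DASA-58 library, at 4.99 to 6.04 against 4.13 to 4.96 and at 5.14 to 6.09 against 4.92 to 5.09. Those of Tars to Tars2 and Vars to Vars2 were lower, at 4.51 to 4.62 against 4.63 to 5.09 and at 12.5 to 13.4 against 13.7 to 15.3. In the other 11 pairs the groups overlapped. How often the ratios of other gene pairs lie apart was not worked out. Of all single genes tested, 21.6% lay apart on the lower side and 11.8% on the higher side.

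Grouping by enzyme class, 4 of the 19 class I genes fell (Iars, Mars, Vars and Yars2, 21.1%). Of these 19 genes, 18 were negative (Eprs not after centring), and the median was -0.10. Of the 17 class II genes 1 fell (Farsa, 5.88%), 13 were negative (Dars and Tars2 not after centring) and the median was -0.07. Over all genes tested 7.28% fell, 59.8% were negative and the median was -0.028. Eprs, the fused enzyme for glutamate and proline, was counted in class I alone, although the proline enzyme Pars2 was counted in class II. The difference between the classes was not tested.

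The 8 enzymes of the multisynthetase complex (Dars, Eprs, Iars, Kars, Lars, Mars, Qars and Rars) were all negative, 2 of them fell (Iars and Mars) and the median was -0.10, with Dars and Eprs near 0 and on the other side of it after centring. Of the 12 cytosolic enzymes outside the complex 2 fell (Farsa and Vars) and the median was -0.08. The calls are 25% of the complex and 16.7% of the others, a difference that was not tested. Over all genes tested 7.28% fell and 59.8% were negative. Among the scaffold proteins, Eef1e1 (AIMP3) fell from 8.94, 9.22 and 9.29 FPKM with DMSO to 7.17, 8.35 and 7.69 FPKM with DASA-58. Its log2 fold change was -0.22 (adjusted p = 0.041, limma) and the call held in 6 of 18 alternatives (adjusted p 0.013 to 0.131), and it was lost without DMSO replicate 1, 2 or 3 (0.088, 0.094 and 0.10) and without DASA-58 replicate 1 or 3 (0.108 and 0.112). Aimp1 and Aimp2 had log2 fold changes of -0.06 and -0.011 and did not pass.

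Of the 12 cytosolic synthetases known as ATF4-linked 2 fell (Iars and Mars), with a median of -0.07. Of the 8 others 2 fell (Farsa and Vars), with a median of -0.10. The shares are 16.7% of the linked genes and 25% of the others, beside 7.28% of all genes tested. The log2 fold changes of the linked genes lay between -0.17 and 0.017 and those of the others between -0.23 and 0.09.

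The promoters were searched for TGATGNAA, the core of the element bound by ATF4 with a C/EBP partner, on both strands. The sequences are from RefSeq on GRCm38.p6 and span 250 bases before to 50 bases after the start of transcription. They were at hand for 12 of the 20 cytosolic and 14 of the 16 mitochondrial genes. Cars, Hars, Lars, Mars, Nars, Rars, Vars, Wars, Hars2 and Pars2 were not matched. The motif was found for 5 of the 12 cytosolic genes (41.7%), for 0 of the 14 mitochondrial genes and in 1304 of the 32851 promoters (3.97%). The synthetase counts are of genes and the last is of promoters, so these shares are unlike measures. The cytosolic genes with a match were Aars, Gars, Iars, Tars and Yars. Iars is the only one of them that fell, and Farsa and Yars2 had no match, which says only that these letters are not in their windows.

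The match nearest the start of transcription of each gene is printed below as 30 bases on the strand of the gene, 5′ to 3′, with the motif or its reverse complement in capitals, to show how alike they are. The position of the first capital base counts from the start of transcription. Iars is shown because it fell, and the others were chosen after the sequences were seen.
Iars, chr13:49682126-49682155, + strand, first base at 8: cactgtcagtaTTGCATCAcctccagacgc
Aars, chr8:111033840-111033869, + strand, first base at 10: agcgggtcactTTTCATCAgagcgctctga
Gars, chr6:55037960-55037989, + strand, first base at -30: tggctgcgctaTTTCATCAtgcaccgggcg
Tars, chr15:11399655-11399684, - strand, first base at -15: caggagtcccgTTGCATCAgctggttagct
Yars, chr4:129189895-129189924, + strand, first base at 4: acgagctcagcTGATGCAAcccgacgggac
The matches of Iars and Tars share the letters TTGCATCA, and Yars holds the same element on the other strand. The 5 genes had log2 fold changes of -0.17 for Iars, -0.10 for Gars, -0.09 for Yars, -0.08 for Tars and -0.07 for Aars.

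Atf4 itself was abundant and fell slightly. Its level was 108, 105 and 108 FPKM with DMSO, against 96.1, 97.8 and 97.6 FPKM with DASA-58, with no overlap. The mean fell from 107 ± 1.93 to 97.2 ± 0.910 FPKM (SD, n = 3), and the log2 fold change was -0.14 with a standard error of 0.026 (adjusted p = 0.015, limma). The call held in 14 of 18 alternatives (adjusted p 0.0050 to 0.061), and was lost without DMSO replicate 1 (0.058), DASA-58 replicate 1 (0.058) or DASA-58 replicate 3 (0.055). Of the 11 tested genes of the eIF2alpha kinases and the ATF4 axis, Atf4 was the only one to pass, and 9 were negative. That is 9.09% lower, beside 7.28% of all genes tested, of which 59.8% were negative. Atf4 mRNA does not show the translation by which ATF4 is mainly controlled.

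The other targets of ATF4 went both ways. Of 19 tested, 3 fell (15.8%) and 2 rose, with a median of -0.0036. Over all genes tested 7.28% fell and 4.24% rose. The mitochondrial serine hydroxymethyltransferase gene Shmt2 fell by 0.23 on the log2 scale, the stress protein gene Nupr1 fell by 0.25 and the aspartate aminotransferase gene Got1 fell by 0.18 (adjusted p 0.0045, 0.0046 and 0.013, limma). Got1 lost the call without DMSO replicate 1 (0.053) or DASA-58 replicate 3 (0.054). The transcription factor genes Atf5 and Atf3 rose by 0.32 and 0.20 (adjusted p = 0.0050 and 0.031, limma). Asns, the asparagine synthetase gene that supplies the substrate of Nars, had a log2 fold change of -0.024 (adjusted p = 0.829, limma), and like Atf3 it is named after its values were seen.

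Among the 12 tested partners of tRNA charging, 2 fell (16.7%) and 0 rose, beside 7.28% and 4.24% of all genes tested. Tufm, the mitochondrial elongation factor that takes up charged tRNA, stood at 52.8, 54.6 and 50.4 FPKM with DMSO, against 45.3, 45.8 and 45.9 FPKM with DASA-58. Its log2 fold change was -0.20 (adjusted p = 0.011, limma), and the call held in 17 of 18 alternatives. Xpot, which exports tRNA from the nucleus, fell by 0.18 on the log2 scale (adjusted p = 0.039, limma), and its call held in 6 of 18 alternatives (adjusted p 0.0020 to 0.124), not without DMSO replicate 1 or 3 (0.104 and 0.095) or DASA-58 replicate 1, 2 or 3 (0.056, 0.10 and 0.124).

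Of the 14 tested amino acid transporters 4 fell (28.6%) and 0 rose, beside 7.28% and 4.24% of all genes tested. The median of the transporters was -0.019, against -0.028 over all genes tested. Slc1a5, the glutamine transporter ASCT2, stood at 32.3, 31.5 and 30.3 FPKM with DMSO, against 24.1, 24.1 and 22.4 FPKM with DASA-58. It fell by 0.40 on the log2 scale (adjusted p = 0.0011, limma) and passed in all 18 alternatives. The cationic amino acid transporter gene Slc7a1 fell by 0.24, Slc7a6 by 0.28 and the neutral amino acid transporter gene Slc38a2 by 0.22 (adjusted p 0.027, 0.015 and 0.024, limma). Slc7a6 passed in 14 of 17 alternatives, Slc38a2 in 11 of 18 and Slc7a1 in 9 of 17, and each was lost with some libraries left out, at an adjusted p of 0.051 for Slc7a6 without DASA-58 replicate 1 and of 0.051 to 0.090 for Slc7a1 without any of the 6. Slc38a2 was lost without DMSO replicate 1 or 3 (0.080 and 0.056) or DASA-58 replicate 2 or 3 (0.074 and 0.082).

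**Figure D4:**
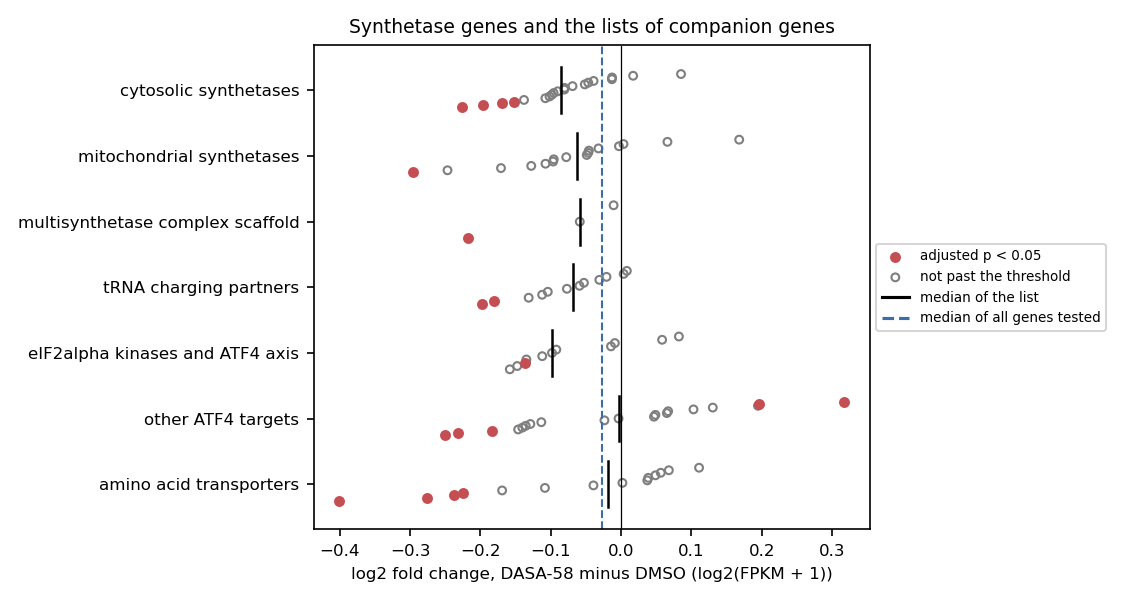
Log2 fold change (DASA-58 minus DMSO, log2(FPKM + 1) scale) of each tested gene in the cytosolic and mitochondrial synthetases and in 5 lists of companion genes. Red points passed an adjusted p under 0.05, the black bar is the median of each list and the dashed line that of all genes tested at -0.028. The synthetase points that passed are all on the lower side, while the other ATF4 targets have 3 lower and 2 higher.

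Marker mRNAs of osteoclasts, macrophages and neutrophils moved with the treatment. Of the osteoclast markers 8 of 8 tested fell, and their summed level was 773 to 828 FPKM with DMSO, against 446 to 465 FPKM with DASA-58. The macrophage markers summed to 1698 to 1742 FPKM with DMSO, against 1872 to 1895 FPKM with DASA-58, where 3 of 7 rose (Adgre1, Mertk and Cd68) and Cd14 fell. The neutrophil markers summed to 113 to 120 FPKM with DMSO, against 92.8 to 97.2 FPKM with DASA-58. Of 4 tested, 2 fell (S100a8 and S100a9), and these made up most of the sum, at 31.8 and 79.8 FPKM on average with DMSO. Elane and Mpo averaged 3.20 and 1.27 FPKM with DMSO, and Ly6g reached at most 0.058 FPKM in any library. T cell markers summed to at most 0.445 FPKM, mast cell and basophil markers to at most 0.423 FPKM and B cell markers to at most 2.38 FPKM in any library, and erythroid markers were not analysed here. Stromal markers summed to 32.0 to 34.5 FPKM, most of it from Col1a1 and Col1a2, at means of 22.3 and 10.2 FPKM with DMSO. Dcn averaged 0.0494 FPKM and Pdgfrb 0.633 FPKM with DMSO. Of the 11 proliferation genes 1 rose (Pcna) and 0 fell. Over all genes tested 7.28% fell and 4.24% rose. Pkm, the gene of the enzyme that DASA-58 activates, stood at 575 ± 9.70 FPKM with DMSO, against 575 ± 6.09 FPKM with DASA-58 (SD, n = 3). The part of these marker differences in the synthetase values was not tested.

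Across the 18 alternatives the calls of Farsa and Yars2 held in each, those of Iars, Vars and Mars held in 10, 9 and 6, and Sars2, Kars, Iars2 and Qars passed in 5, 2, 1 and 1. Without DASA-58 replicate 1 or DASA-58 replicate 3, Farsa alone of the 20 cytosolic genes passed.

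**Figure D5:**
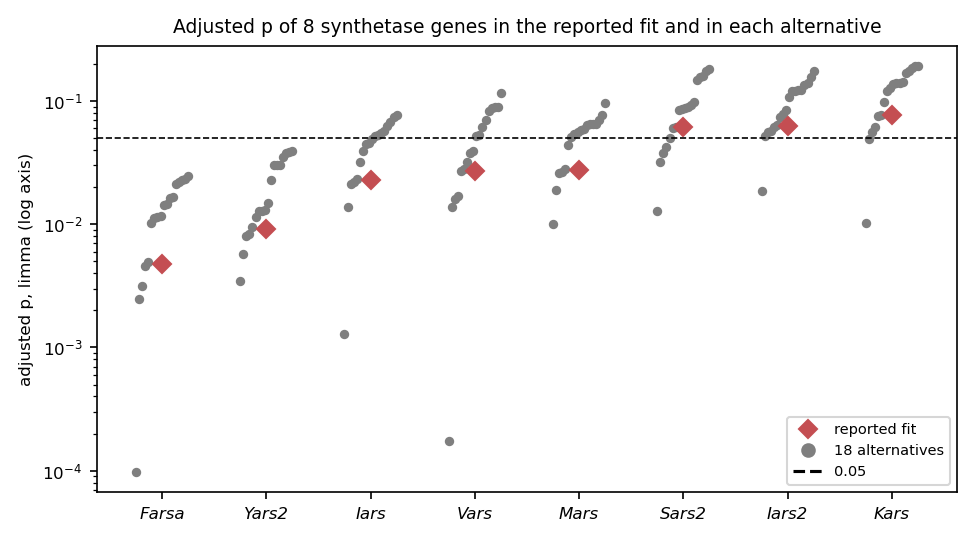
Adjusted p from limma (log axis) of 8 synthetase genes in the reported fit (red diamonds) and in each of 18 alternative settings (grey points), with the threshold of 0.05 dashed. All points of Farsa and Yars2 lie below the line, and those of Iars, Vars and Mars lie on both sides of it.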

How the data were processed

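RNA of 6 libraries (3 DMSO, 3 DASA-58) was analysed. The authors deposited FPKM values of 23504 genes in 1 table, and the submitters' processing notes name HISAT2 2.1.0, HTSeq 0.6.0 and mm8. Annotation and strand use are not given in the sources used here. All value columns were used (0 unmapped). Symbols were matched for 23455 identifiers with GENCODE mouse release 21. Whole fragments within 0.02 were recovered from the FPKM steps with the annotated length for 21367 genes and with a fitted length for 2136. Hars, Lars, Nars, Tars and Aars2 needed a fitted length, so that their FPKM rest on another length than the annotation gives. Fragments gave the depth and served for counting error, a count of 0 allowing 3, and for the voom alternative. For genes with a fitted length, the voom fit then rests on fragments that are a lower limit.

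Groups were compared with limma 3.58.1 (R 4.3.3; lmFit, eBayes with trend) on log2(FPKM + 1) for genes averaging 1 FPKM or more, with Benjamini-Hochberg adjustment over all of them. The script was tested on simulated data. The exact permutation test used SciPy 1.17.1. All 36 members are named. Full values are given for members past the threshold and for the 5 others with the largest absolute change, and companion lists name the genes that passed, or the 4 with the smallest p. The members and lists were chosen with earlier results of these data known. The same-numbered libraries were not taken as pairs. The 18 alternatives covered the pseudocount (0.1 and 5), the filter, scaling, variance model, replicate number, each library left out and voom on fragments. Figures used Python 3.11.15 and matplotlib 3.10.9. Another sequence is not reported here.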

Additional observations from a re-analysis of the deposited data

How the results depend on the processing

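The 4 cytosolic and 1 mitochondrial calls were recounted in 18 alternatives. The cytosolic count was 1 with no filter on low values, with no trend in the variance and with no variance shrinkage, 2 with quantile normalization, centring on the median or a trimmed mean of log ratios, 1 to 3 with a library left out, 5 at a mean of at least 5 FPKM and 6 with voom on recovered fragments. The mitochondrial count was 2 of the 7 genes tested at a mean of at least 5 FPKM. It was 2 with equal FPKM totals, 3 with voom on recovered fragments and 1 to 2 with a library left out. The cytosolic median of -0.085 was -0.065 with quantile normalization, -0.059 with centring and -0.058 with the trimmed mean. The mitochondrial median of -0.063 was -0.031 at a pseudocount of 5, -0.035 with quantile normalization, -0.037 with centring and -0.045 with the trimmed mean. With a library left out it was -0.092 to -0.057. At a mean of at least 5 FPKM only 7 mitochondrial genes were tested, and the median of these was -0.096. That filter changed which genes were tested and not their fold changes. A larger pseudocount shrinks the fold changes of low genes, as for Wars2 from -0.171 in the reported fit to -0.061 at 5. The cause of the other shifts was not tested.

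The sign turned only for genes that missed the threshold in every fit. With quantile normalization, centring and the trimmed mean, Dars was at 0.017, 0.014 and 0.014, Eprs at 0.011, 0.014 and 0.013, Tars2 at 0.025, 0.024 and 0.022 and Aimp2 at 0.014, 0.016 and 0.015. With equal FPKM totals Nars was at -0.00017 and Pars2 at -0.0093. With a library left out, Dars ran from -0.066 to 0.037, Fars2 from -0.094 to 0.026, Lars2 from -0.045 to 0.321, Pars2 from -0.013 to 0.032, Rars2 from -0.085 to 0.017, Tars2 from -0.030 to 0.026 and Aimp2 from -0.074 to 0.035.

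Over all 10965 genes, 798 lower and 465 higher became 588 and 600 with quantile normalization, 504 and 597 with centring and 509 and 600 with the trimmed mean. They became 515 and 341 with no trend, 314 and 227 with no shrinkage, 1327 and 742 with voom and 958 and 386 with equal totals. With a library left out 387 to 603 were lower. The filter changes the number of genes tested. At a mean of at least 5 FPKM 844 were lower and 505 higher of 7179 tested, and with no filter 372 and 257 of 23504. The replicate numbers are shared between the groups, and the study does not say whether same-numbered libraries were pairs. The deviations of same-numbered libraries correlated at -0.015, 0.016 and -0.016, and no library correlated best with its own number. These correlations cannot settle whether the libraries were prepared in pairs. With the replicate number as a block, 3 cytosolic and 2 mitochondrial synthetase genes passed, and 579 genes were lower and 378 higher. The lowest mitochondrial genes rest on little more than 100 fragments.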
